A study of Mus musculus with 6 samples.

Results

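The 10 genes described here encode secreted antimicrobial proteins of surface epithelia: the beta-defensins Defb1, Defb3, Defb4, Defb6, Defb13 and Defb14, the calprotectin subunits S100a8 and S100a9, the siderophore-binding lipocalin Lcn2 and the protease inhibitor Slpi. They were chosen by name from the 26814 genes of the count table, and all 10 had counts and passed the filter of at least 1 CPM (a gene's count scaled to the size of its library) in at least 3 libraries, as did 15009 genes in all. The top lip was sampled from 6 adult females, 2 to 6 months old and on a C57BL/6J background, of which 3 were wild type (WT) and 3 carried the Gtf2ird1tm1Hrd mutation (KO), with 1 RNA-Seq library per mouse. The authors call the KO mice knockouts with overgrown lips, a trait they describe as not apparent in heterozygotes. The mutation is present in every cell, so no promoter or Cre limits it to one cell type, and the lip was taken whole, with skin, hair follicles, glands and muscle. Values per library are CPM with TMM-scaled library sizes. Total counts ranged from 20164081 in KO1 to 29491767 in KO2. The targeted gene, Gtf2ird1, had higher counts in the libraries labelled KO. It had 78.2, 70.2 and 70.7 CPM in WT1, WT2 and WT3 and 166, 162 and 144 CPM in KO1, KO2 and KO3. Its log2 fold change was 1.11 (SE 0.13, adjusted p = 0.0018, edgeR quasi-likelihood test). The paper says that tail biopsies were taken to check the genotypes. It also describes GTF2IRD1 as able to regulate its own gene by binding the promoter, and the part of this in the counts was not tested. A count per gene cannot show whether transcripts of the targeted allele are counted. Directions are therefore given for the libraries labelled KO.

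Epithelial antimicrobial proteins kill or starve microbes at the body surface. Beta-defensins are small cationic peptides folded around 6 cysteines, which form 3 disulfide bonds, and they damage microbial membranes and attract immune cells. S100A8 and S100A9 form calprotectin, which withholds zinc and manganese, LCN2 withholds iron by binding siderophores, and SLPI blocks neutrophil elastase and related proteases. In skin some of these genes are transcribed all the time, such as Defb1, whereas others are induced by microbial products, wounding and the cytokines IL-1 and IL-17. Neutrophils also carry much S100A8, S100A9 and LCN2.

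Of the 10 genes, 1 was called in the comparison of the genotypes, Defb13, which was higher in the libraries labelled KO (adjusted p = 1.23e-05, edgeR quasi-likelihood test with Benjamini-Hochberg adjustment over 15009 genes). Over all tested genes 4.38% were called higher and 2.09% lower. In 4 of the 10 genes, Defb1, Defb3, Defb13 and Defb14, each KO library lay above each WT library, a pattern that 13.5% of the tested genes showed. In the other 6 genes the genotypes overlapped, as they did in 10279 of the 15009 tested genes. The fitted log2 fold change was positive for 9 genes and negative for Defb4, with a median of 1.19, beside a median of -0.02 over all tested genes. This tally rested on KO1: without it, at a filter of 1 CPM in 2 libraries chosen after seeing the data, 5 genes were positive and 5 negative, with a median of 0.12. Without WT1 all 10 were positive, with a median of 2.14. Defb13 passed the filter through the KO libraries alone, so it had to differ, and its call is a description of how large the difference was. Defb3 and Defb14 were also called higher by edgeR's exact test, and Defb1, Defb3 and Defb14 by DESeq2's Wald test and by the quasi-likelihood test without KO3.

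**Figure D1:**
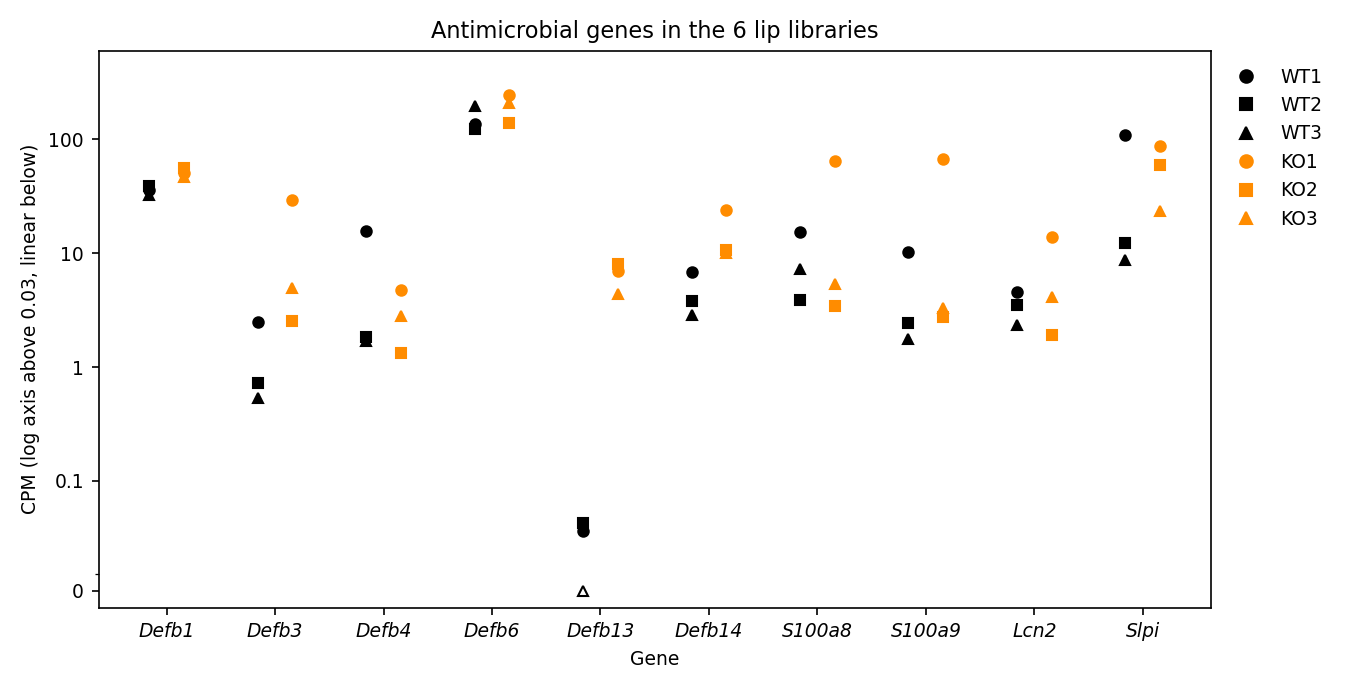
CPM of the 10 antimicrobial genes in each library (y axis, logarithmic above 0.03 CPM and linear below), with WT libraries in black, libraries labelled KO in orange and an open symbol for a count of 0. The groups stand apart without overlap in Defb1, Defb3, Defb13 and Defb14, and KO1 lies far above KO2 and KO3 in Defb3, S100a8, S100a9 and Lcn2.

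Defb13 and its neighbours were all but silent in WT lip. The coding sequences of Defb13 and Defb15 are shown because these genes stand near each other and moved together between the genotypes, and those of Defb3, Defb4 and Defb6 because they are similar in sequence while Defb6 was far more abundant than Defb3 and Defb4 in every library. They are GENCODE coding sequences on GRCm38, from start to stop codon on the strand of the gene, and the capitals mark the codons of the 6 cysteines of the defensin fold.
Defb13 coding sequence: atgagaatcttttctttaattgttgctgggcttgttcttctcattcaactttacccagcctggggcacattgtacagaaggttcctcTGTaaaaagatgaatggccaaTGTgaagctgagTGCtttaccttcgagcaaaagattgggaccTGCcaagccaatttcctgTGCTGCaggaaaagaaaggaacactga
Defb15 coding sequence: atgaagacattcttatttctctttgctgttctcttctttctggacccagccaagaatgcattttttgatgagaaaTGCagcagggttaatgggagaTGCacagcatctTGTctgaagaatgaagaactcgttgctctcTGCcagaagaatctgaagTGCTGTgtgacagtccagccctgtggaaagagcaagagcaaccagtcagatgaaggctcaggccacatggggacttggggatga
Defb3 coding sequence: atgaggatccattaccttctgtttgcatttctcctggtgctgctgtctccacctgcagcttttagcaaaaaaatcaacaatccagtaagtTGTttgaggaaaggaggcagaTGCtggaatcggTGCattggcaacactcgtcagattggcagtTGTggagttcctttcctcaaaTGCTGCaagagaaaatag
Defb4 coding sequence: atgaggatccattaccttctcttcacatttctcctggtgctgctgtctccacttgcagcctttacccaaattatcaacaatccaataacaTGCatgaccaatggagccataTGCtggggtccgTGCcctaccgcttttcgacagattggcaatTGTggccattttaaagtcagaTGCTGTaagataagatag
Defb6 coding sequence: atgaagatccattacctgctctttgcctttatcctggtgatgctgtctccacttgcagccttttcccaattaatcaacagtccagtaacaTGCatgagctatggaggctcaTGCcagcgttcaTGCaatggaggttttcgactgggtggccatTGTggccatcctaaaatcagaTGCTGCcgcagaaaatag

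In Defb13 and Defb15 the 6 cysteine codons were separated by 6, 3, 9, 5 and 0 codons, whereas in Defb3, Defb4 and Defb6 the fourth interval held 6 codons. Defb13 was identical to Defb15 at 47.8% of the columns of a global alignment. Defb4 and Defb6 were identical at 78.6%, Defb3 and Defb4 at 76.0%, and Defb3 and Defb6 at 71.9%. None of the 50-base words in the transcripts of Defb1, Defb3, Defb6, Defb13, Defb14, S100a8, S100a9, Lcn2 or Slpi occurred in a transcript of another gene. Defb4 shared 5.68% of its words with Defb8, Defb35 shared 8.72% with Defb12, and Defb15 shared 37.2% with Gm36879, which overlaps its exons on the opposite strand. Counts of Defb4, Defb15 and Defb35 are therefore less certain, those of Defb15 because the strand setting of the counting is not given in the sources used here.

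Defb13 (chr8:21946762-21948850, plus strand, protein coding) had counts of 1, 1 and 0 in WT1, WT2 and WT3, and of 137, 246 and 96 in KO1, KO2 and KO3. Every library labelled KO held at least 96 reads of this gene, and no WT library held more than 1. In CPM this was 0.0263 ± 0.023 in WT and 6.50 ± 1.90 in KO (SD, n = 3 each). Over the summed libraries 479 reads against 2 gave a depth-scaled ratio of 244, with an exact binomial 95% interval of 67.3 to 2024 that covers counting error only. The fitted log2 fold change was 7.65 (SE 0.50). A WT count of 0 allowed up to 0.135 CPM in WT3.

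The adjoining genes showed the same separation. Defb15 (chr8:21929799-21932710, minus strand) had 1, 0 and 1 counts in the WT libraries and 71, 124 and 28 in KO1, KO2 and KO3 (log2 fold change 6.54, SE 0.70, adjusted p = 0.00022 in edgeR's quasi-likelihood test). Defb35 (chr8:21938352-21940878, plus strand) had 0, 1 and 1 counts in WT and 30, 92 and 23 in KO (log2 fold change 5.88, SE 0.70, adjusted p = 0.00051 in edgeR's quasi-likelihood test). Summed over libraries, the depth-scaled ratio was 114 for Defb15 (95% interval 31.1 to 946) and 74.0 for Defb35 (20.1 to 617). All 3 genes were highest in KO2 and lowest in KO3. Both neighbours passed the filter through the KO libraries alone, as did 157 of the tested genes. Like Defb13 they had to differ, so their calls describe only how large the difference was and add no support to that of Defb13. Both genes are known from the male reproductive tract, where Defb15 and Defb35 are transcribed in the epididymis.

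The 3 genes lie within 19052 bases of chromosome 8. Within 100000 bases on either side GENCODE lists 13 genes, of which 9 had counts, and the 3 defensins were the only ones of these to pass the filter. The next defensins along the chromosome, Defb11 and Defb9, had at most 2 counts in any library. Defb2, slightly farther away, had 1, 0 and 3 counts in WT and 5, 6 and 7 in KO, which is too few to test. On the other side Ccdc70 had at most 3 counts and Atp7b, a copper transporter gene, had 13, 16 and 9 counts in WT and 5, 9 and 8 in KO. Of the 19 beta-defensin genes with counts, 11 stayed under the filter, and 8 of them had at most 3 counts in each library.

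**Figure D2:**
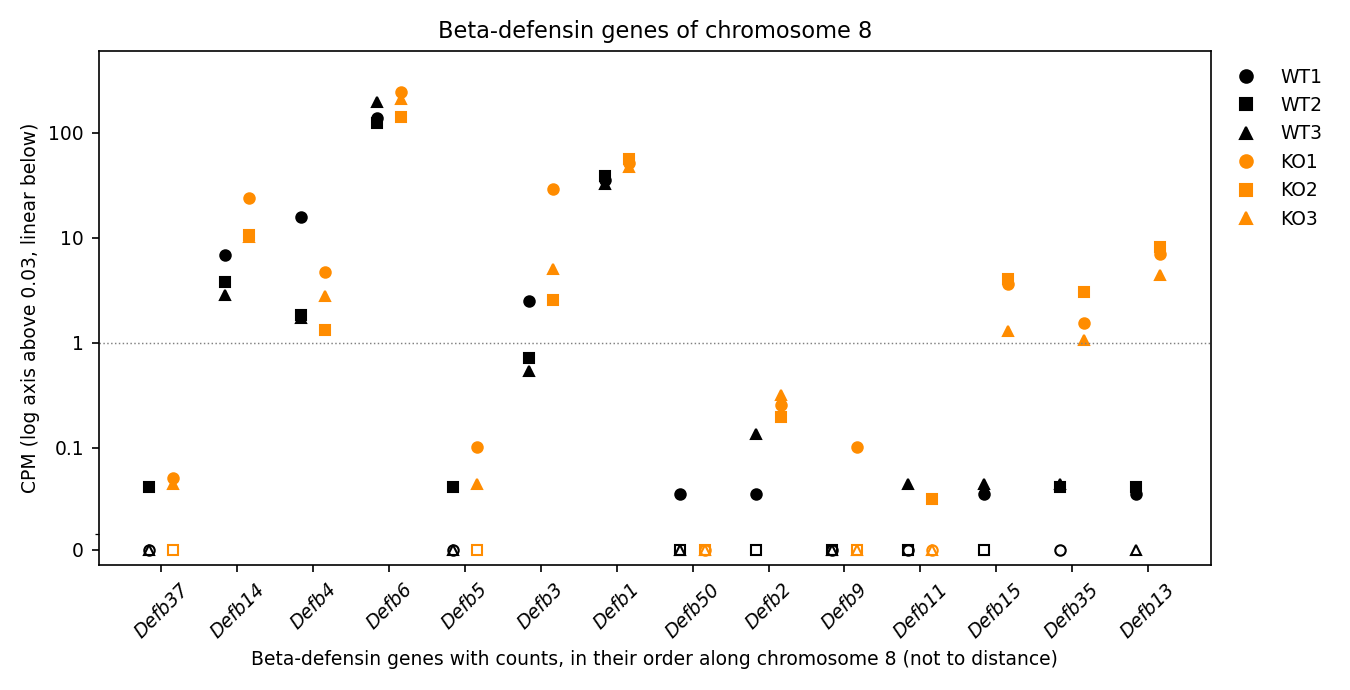
CPM of the beta-defensin genes of chromosome 8 that had counts, in their order along the chromosome and not to distance (y axis logarithmic above 0.03 CPM, linear below), with WT in black, KO in orange, open symbols for a count of 0 and a dotted line at 1 CPM. Defb15, Defb35 and Defb13, next to each other at the right, lie above 1 CPM in the 3 libraries labelled KO and below 0.05 CPM in WT, while Defb6 and Defb1 are the most abundant in all libraries.

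Bases upstream of the start were available in RefSeq (GRCm38.p6) for Defb13 and Defb15 and for the pair Defb3 and Defb6, and the 250 bases before each start are given on the strand of the gene. They are chr8:21946505-21946754 for Defb13 (plus strand), chr8:21932711-21932960 for Defb15 (minus strand), chr8:19293111-19293360 for Defb3 (plus strand) and chr8:19225228-19225477 for Defb6 (plus strand). Capitals mark matches, on either strand, to a TATA box (TATAAA), a C/EBP site (TTNNGNAA), a STAT site (TTCNNNGAA), an AP-1 site (TGANTCA), the NF-kB consensus or the core bound by GTF2IRD1 (GGATTA).
Defb13 promoter: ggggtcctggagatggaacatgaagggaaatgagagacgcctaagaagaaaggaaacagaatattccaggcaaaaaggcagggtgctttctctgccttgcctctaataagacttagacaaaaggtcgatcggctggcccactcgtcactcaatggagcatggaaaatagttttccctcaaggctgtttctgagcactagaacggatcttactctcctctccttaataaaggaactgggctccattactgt
Defb15 promoter: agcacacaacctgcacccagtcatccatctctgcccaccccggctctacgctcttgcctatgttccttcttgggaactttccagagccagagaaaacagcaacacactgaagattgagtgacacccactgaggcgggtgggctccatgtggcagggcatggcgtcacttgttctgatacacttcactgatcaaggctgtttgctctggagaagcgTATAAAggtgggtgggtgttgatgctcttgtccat
Defb3 promoter: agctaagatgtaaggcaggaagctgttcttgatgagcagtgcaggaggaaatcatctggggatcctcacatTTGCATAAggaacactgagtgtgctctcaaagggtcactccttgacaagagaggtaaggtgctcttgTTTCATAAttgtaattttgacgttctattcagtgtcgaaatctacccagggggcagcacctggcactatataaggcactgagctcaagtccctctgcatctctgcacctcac
Defb6 promoter: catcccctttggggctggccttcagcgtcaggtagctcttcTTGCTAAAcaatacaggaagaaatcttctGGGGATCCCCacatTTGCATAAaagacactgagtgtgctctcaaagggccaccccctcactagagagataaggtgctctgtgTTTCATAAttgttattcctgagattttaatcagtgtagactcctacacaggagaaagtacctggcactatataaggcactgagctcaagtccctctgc

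Defb13 held none of the 6 motifs in this window, and Defb15 held a TATA box 35 bases before its start. A TATA box of these letters was present in 12.4% of all 32851 promoters of the same length. Defb3 held 2 C/EBP matches and Defb6 held 3, of a motif found in 36.8% of promoters. Defb6 also held an NF-kB match, found in 7.25% of promoters, which Defb3 lacked although the 2 windows were identical at 72.5% of aligned columns. STAT, AP-1 and GTF2IRD1 core matches, present in 7.02%, 6.75% and 6.25% of promoters, occurred in none of the 4 windows. A match or its absence says only which letters are in the window. Of the 10 genes 7 had a promoter in this collection, and Defb1, Defb4 and Defb14 did not, nor did Defb35.

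Per kilobase of exon, Defb6 was the most abundant of the 10 genes in every library, at 473 ± 121 CPM per kb in WT and 611 ± 163 in KO (SD, n = 3). Defb1 followed in WT at 40.9 ± 3.46 CPM per kb, next to Slpi (36.6 ± 48.0) and Defb14 (22.0 ± 10.1), and the ranges of Defb1 and Slpi overlapped. Defb4 (14.1 ± 17.7), S100a8 (12.7 ± 8.38), S100a9 (9.16 ± 8.95) and Defb3 (4.57 ± 3.95) came next in WT, each within the spread of its neighbours in this order. Lcn2 at 1.32 ± 0.43 and Defb13 at 0.0581 ± 0.0508 CPM per kb were the lowest in WT. In the libraries labelled KO the order below Defb6 was Defb14 (72.9 ± 38.2), Defb1 (58.5 ± 5.31), Slpi (47.9 ± 26.8), S100a9 (46.7 ± 70.9), Defb3 (44.4 ± 53.4) and S100a8 (35.3 ± 50.2), and the spread of these genes did not separate them. Defb13 (14.4 ± 4.21), Defb4 (6.51 ± 3.81) and Lcn2 (2.52 ± 2.42) were the lowest in KO. Both orders depend on annotated exon lengths, 204 bases for Defb14, the length of its coding sequence, and 2623 for Lcn2. In CPM not divided by length, Defb14 (14.9) lay below Defb1 (51.0) and Slpi (56.5) in KO. Lcn2 (3.47) lay above Defb3 (1.26) in WT. Of the summed CPM of the 19 defensins Defb6 made up 62.0% to 83.7%, and Defb13 made up at most 0.0251% in WT and between 1.57% and 3.58% in KO.

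Defb1 (chr8:21776599-21795185, plus strand), the defensin that epithelia express without stimulation, had the tightest values. It had 35.6, 38.8 and 32.7 CPM in WT1, WT2 and WT3, and 50.8, 55.8 and 46.5 CPM in KO1, KO2 and KO3. The genotypes did not overlap, and the highest library exceeded the lowest by 1.18 times in WT and 1.20 times in KO. The log2 fold change of 0.52 (SE 0.14) missed the threshold (adjusted p = 0.0638, edgeR quasi-likelihood test). With any 1 library removed it lay between 0.45 and 0.64.

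Defb14 (chr8:19194357-19195212, plus strand), an inducible skin defensin that binds the chemokine receptor CCR6, had 6.82, 3.78 and 2.88 CPM in WT1, WT2 and WT3. It had 23.8, 10.7 and 10.1 CPM in KO1, KO2 and KO3, so that all KO values lay above all WT values. The fitted difference was 1.71 on the log2 scale (SE 0.43, adjusted p = 0.0543, edgeR quasi-likelihood test), just outside the threshold. The size stayed between 1.26 and 2.15 with any 1 library removed. KO1 was 2.37 times KO3.

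Defb3 (chr8:19293360-19295291, plus strand), which bacteria induce in airway and oral epithelium, had 2.50, 0.723 and 0.54 CPM in the WT libraries. It had 29.1 CPM in KO1 but 2.53 in KO2 and 4.98 in KO3. The lowest KO library, at 2.53 CPM, was barely above the highest WT library, and KO1 was 11.5 times KO2. Its log2 fold change of 3.23 (SE 0.97, adjusted p = 0.0816, edgeR quasi-likelihood test) was 1.59 without KO1 and 4.24 without WT1.

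Defb6 (chr8:19225478-19228209, plus strand), described in skin and in skeletal muscle, had 137, 124 and 197 CPM in WT and 243, 140 and 208 CPM in KO1, KO2 and KO3. The genotypes overlapped, with WT3 above KO2. Its log2 fold change was 0.37 (SE 0.25, adjusted p = 0.340, edgeR quasi-likelihood test). The 6 skeletal muscle markers, all with negative log2 fold changes and 1 of them called lower (Tnnt3), summed to between 8182 and 10664 CPM in WT and between 3561 and 6961 in KO, and their part in the Defb6 values was not tested.

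Defb4 (chr8:19198706-19201545, plus strand), an inducible defensin of airway and mouth, was the only gene of the 10 with a lower fitted level in KO. It had 15.7 CPM in WT1 against 1.83 in WT2 and 1.71 in WT3, and 4.76, 1.32 and 2.79 CPM in KO1, KO2 and KO3. The WT mean rested on WT1, which was 9.17 times WT3. The log2 fold change of -1.15 (SE 0.87, adjusted p = 0.394, edgeR quasi-likelihood test) turned to 0.71 without WT1.

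S100a8 (chr3:90668978-90670035, plus strand) and S100a9 (chr3:90692632-90695721, minus strand) varied most of the 10 genes between the libraries labelled KO. In WT their highest library was 3.93 and 5.79 times the lowest, less than for Slpi (12.4) and Defb4 (9.17). S100a8 had 15.2, 3.87 and 7.29 CPM in WT and 64.8, 3.42 and 5.40 CPM in KO1, KO2 and KO3. S100a9 had 10.2, 2.42 and 1.75 CPM in WT and 67.1, 2.73 and 3.29 CPM in KO1, KO2 and KO3. KO1 alone was high, and KO2 and KO3 lay within or close to the WT range for both genes.

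Between the highest and lowest KO library the ratio was 18.9 for S100a8 and 24.6 for S100a9, and 0.107% and 0.0933% of tested genes had a larger one. The log2 fold change was 1.47 (SE 1.03, adjusted p = 0.365) for S100a8 and 2.33 (SE 1.24, adjusted p = 0.242) for S100a9 in edgeR's quasi-likelihood test. Without KO1 both turned negative, to -0.94 and -0.62. Reads of S100a8 exceeded those of S100a9 in 5 of 6 libraries, with ratios of 1.5, 1.6 and 4.15 in WT1, WT2 and WT3 and 0.966, 1.25 and 1.64 in KO1, KO2 and KO3.

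Lcn2 (chr2:32384633-32388252, minus strand) had 4.57, 3.49 and 2.34 CPM in WT and 13.8, 1.91 and 4.12 CPM in KO1, KO2 and KO3. KO1 was again the high library, 7.25 times KO2, and KO2 was the lowest of the 6. Its log2 fold change of 0.91 (SE 0.64, adjusted p = 0.367, edgeR quasi-likelihood test) became -0.17 without KO1.

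Slpi (chr2:164354070-164389095, minus strand, with the microRNA gene Mir7678 inside its exons on the same strand) had 109, 12.3 and 8.72 CPM in WT1, WT2 and WT3. It had 86.6, 59.4 and 23.6 CPM in KO1, KO2 and KO3. The KO libraries lay above WT2 and WT3 but below WT1, which was 12.4 times WT3. Its log2 fold change was 0.39 (SE 0.89, adjusted p = 0.797, edgeR quasi-likelihood test). It was 2.42 without WT1, with an adjusted p of 0.0847, and lay between -0.10 and 0.76 without any other single library.

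**Figure D3:**
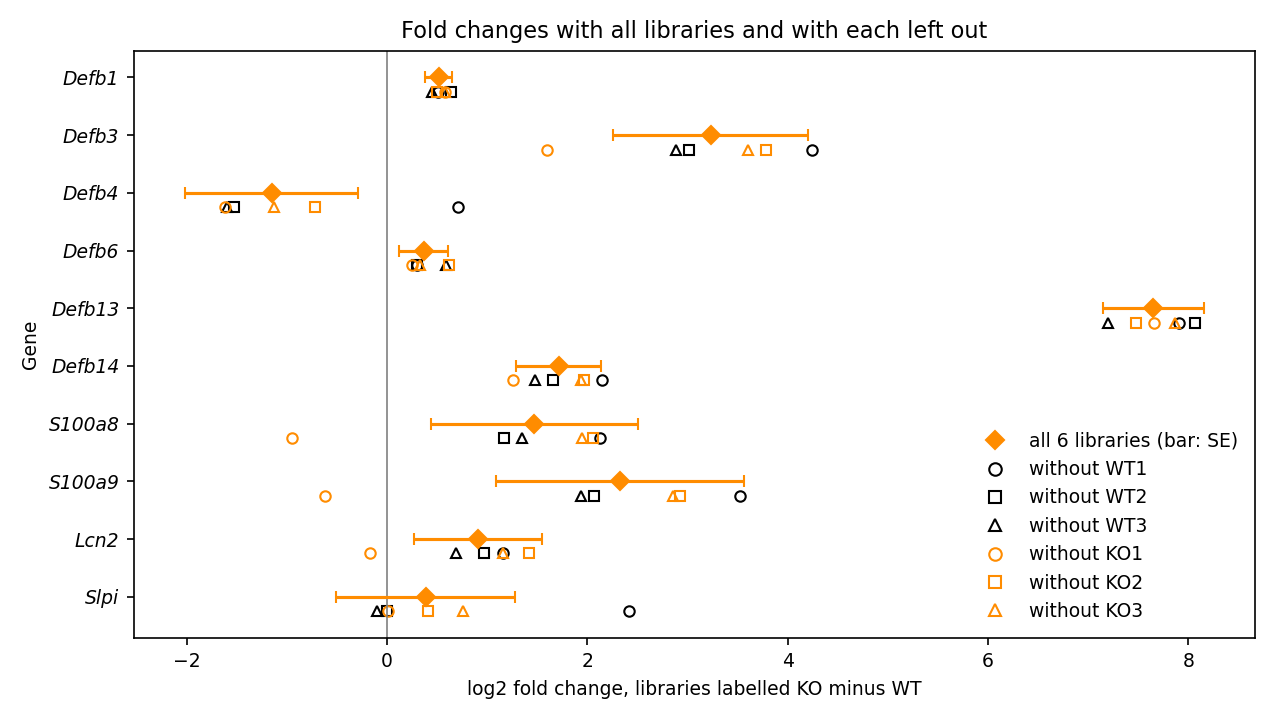
Log2 fold change (x axis, libraries labelled KO minus WT) of each of the 10 genes, as an orange diamond with its standard error for all 6 libraries and as open symbols with each library left out, for Defb13 without a KO library at a filter of at least 1 CPM in 2 libraries. Defb13 stays between 7.20 and 8.07 and Defb1 between 0.45 and 0.64, and S100a8, S100a9 and Lcn2 cross 0 without KO1 and Defb4 without WT1.

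The 3 libraries labelled KO were consistent for a minority of the genes. The highest KO library was less than 2 times the lowest for Defb1 (1.20), Defb6 (1.74) and Defb13 (1.84), that is for 3 of the 10 genes, whereas 84.5% of all tested genes had a ratio this small and the median ratio was 1.37. Defb14 followed at 2.37, Defb4 at 3.62 and Slpi at 3.67. KO1 was the highest KO library for 8 of the 10 genes, all but Defb1 and Defb13, and it was the highest for 33.4% of tested genes. In WT, WT1 was the highest for 7 of the 10, and it was the highest for 28.8% of tested genes.

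**Figure D4:**
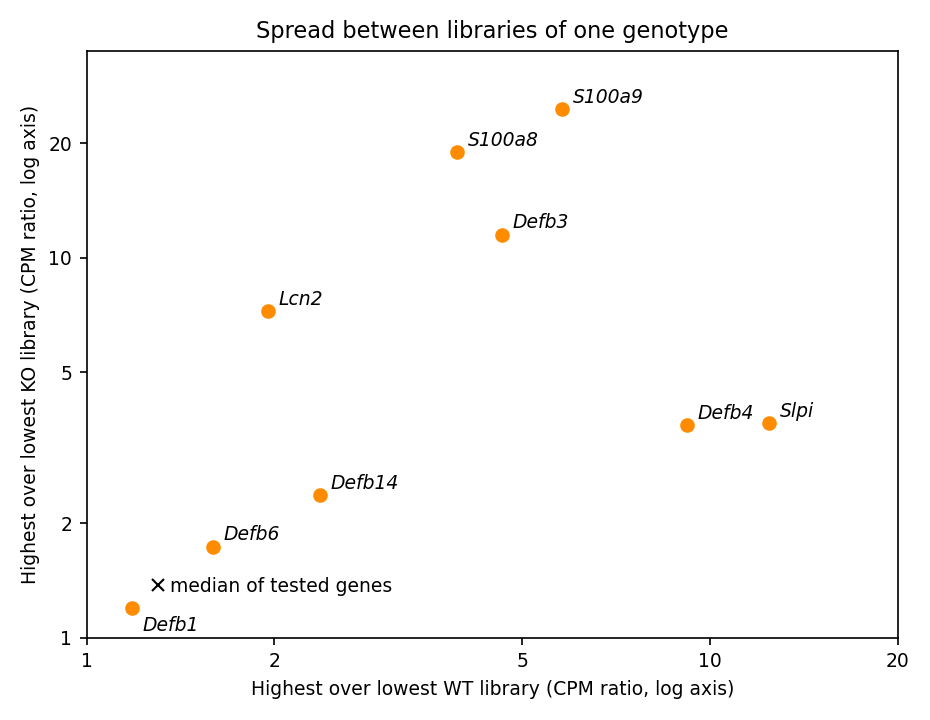
Ratio of the highest to the lowest CPM among the WT libraries (x axis, logarithmic) and among the libraries labelled KO (y axis, logarithmic) for 9 genes, with a cross at the medians of all tested genes, 1.30 and 1.37. Defb13 is not drawn because WT3 had a count of 0. Defb1 lies beside the cross, and S100a8, S100a9 and Defb3 are the farthest from it in KO, with Slpi and Defb4 the farthest in WT.

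WT1 also stood apart in part of the markers of oral mucosa, and KO1 did not. The 5 oral mucosal keratinocyte markers summed to 5273 CPM in WT1 and to between 332 and 623 CPM in the other 5 libraries, with 623 CPM in KO1, and 0 of the 4 markers tested were called. Krt13, a keratin of the mucosa, had 2805, 111 and 20.1 CPM in WT1, WT2 and WT3 and between 22.5 and 77.3 CPM in KO. Krt4, its partner, had 1987, 58.3 and 9.40 CPM in WT and between 36.1 and 115 in KO. Krt76, a keratin of the palate, had 82.8, 2.81 and 0.225 CPM in WT and at most 0.461 in KO. The other 2 markers did not set WT1 apart: Krt24 was highest in KO2 (281 CPM, against 244 in WT1) and Krt78 in KO1 (221 CPM, against 153 in WT1). Slpi and Defb4 were also highest in WT1, and Defb3, Defb14, S100a8, S100a9 and Lcn2 were higher in WT1 than in WT2 and WT3. The part of the mucosal markers in these values was not tested. Without WT1 and KO1 together, a choice made after seeing the data, the log2 fold change was 2.04 for Slpi (adjusted p = 0.0802), 2.60 for Defb3 (adjusted p = 0.0359) and 1.69 for Defb14 (adjusted p = 0.0291) in edgeR's quasi-likelihood test. In whole tissue, fewer cells of a type and less RNA per cell cannot be told apart.

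**Figure D5:**
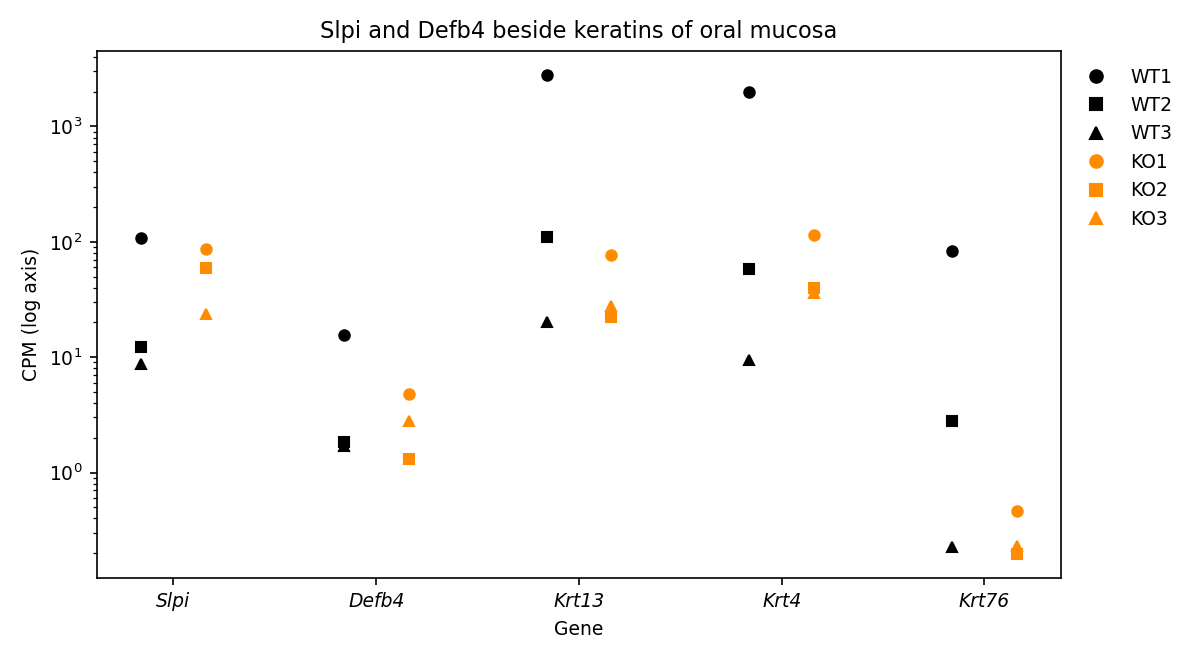
CPM (logarithmic y axis) of Slpi and Defb4 beside Krt13, Krt4 and Krt76, 3 of the 5 oral mucosal markers, in the 6 libraries, WT in black and KO in orange. WT1 is the highest library for all 5 genes drawn. The other 2 markers of the list, Krt24 and Krt78, are not drawn and were highest in KO2 and KO1.

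Neutrophil transcripts were scarce in all libraries. The 12 neutrophil markers with counts summed to between 6.72 and 9.18 CPM in WT and between 8.19 and 13.0 CPM in KO, with the highest sum in KO1. The granule genes Camp, Ltf and Ngp and the stefin Stfa2l1 had at most 3 counts in each library, the granule enzyme gene Mpo had at most 6, and of the 3 markers tested none was called. Other markers of the list were higher: Stfa1 had 0.472, 0.383 and 0.315 CPM in WT and 2.97, 0.625 and 0.640 CPM in KO1, KO2 and KO3. Cxcr2 had 3.45, 2.17 and 1.98 CPM in WT and 4.71, 4.50 and 3.38 in KO, and Csf3r had 2.69, 2.04 and 2.20 in WT and 3.53, 1.78 and 2.93 in KO. All 3 were highest in KO1, as were S100a8 and S100a9. Others of the list went the other way: Ctsg had 1.45, 1.15 and 1.44 CPM in WT and 0.716, 0.493 and 0.686 in KO. Prtn3 had 0.399, 0.468 and 0.270 CPM in WT and 0.102, 0.197 and 0.183 in KO. Retnlg was highest in WT1 (0.436 CPM) and Mmp8 in KO2 (0.395 CPM). The part of neutrophils in these values was not tested. Suprabasal keratinocyte markers, the differentiated layers in which several of these antimicrobial proteins are made, summed to between 20925 and 25270 CPM in WT and between 31742.5 and 48431 in KO, again highest in KO1. Of these 10 markers 1 was called, Ivl, which was higher in KO. Krt1 and Krt10 gave 22673 and 16021 CPM of the sum in KO1. Lor and Flg2 had negative log2 fold changes (-0.32 and -0.17). In 5 of the 10 the genotypes overlapped, as they did in 10279 of the 15009 tested genes. In the other 5 each KO library lay above each WT library, a pattern that 13.5% of the tested genes showed. Among the KO libraries Flg, Flg2, Ivl and Lor were highest in KO2. Basal keratinocyte markers ranged from 11264 to 12147 CPM in WT and from 11530 to 12805 in KO, with 1 of 8 called higher (Dst). Hair follicle markers, of which 0 of 8 were called, all had negative log2 fold changes (median -0.58), and summed to between 8813 and 11193 CPM in WT and between 5582 and 7485 in KO. Of 4 hyperproliferative keratinocyte markers 1 was called higher (Krt16), and the list summed to between 3841 and 5485 CPM in WT and between 5785 and 8827 in KO. Of 6 sebaceous gland markers 1 was called higher (Scd3) and 1 lower (Awat1), and the 1 nasal and respiratory marker tested, Cyp2f2, was called lower. Of 3 salivary and mucous gland markers tested 2 were called higher (Aqp5 and Lpo), and Amy1 had a log2 fold change of -0.01. Muc5b and Muc19, too low to test, had lower means in KO, 0.367 against 0.694 CPM and 0.243 against 0.347 CPM in WT. Of the markers tested, 0 of 6 macrophage and 0 of 3 T cell markers were called. The part of these lists in the antimicrobial genes was not tested.

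Cytokines that induce these genes in keratinocytes were higher in part. Of 6 inducing cytokines tested, 2 were called higher and 0 lower, with a median log2 fold change of 1.21. Il1f9, an IL-36 cytokine of keratinocytes, had 30.0 ± 3.83 CPM in WT and 101 ± 41.8 in KO (SD, n = 3 each). Il1b, the classic inducer, was at 0.725 ± 0.146 and 3.00 ± 0.919 CPM, with no WT library reaching 1 CPM. The IL-17 genes Il17a and Il17f had at most 1 count in any WT library and at most 8 and 9 counts in KO, too few to test.

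Among receptors 3 of 20 tested were called higher and 0 lower, with a median log2 fold change of 0.28. These were Nod2, a sensor of bacterial cell wall fragments, at 9.67 ± 1.67 CPM in WT and 32.5 ± 7.83 in KO, Tlr2 at 6.14 ± 0.78 and 12.8 ± 1.36 CPM, and Tlr3, which senses double-stranded RNA, at 6.56 ± 0.289 and 11.6 ± 1.69 CPM. Of 21 signal transducers and transcription factors 1 was called higher, Fosl1, an AP-1 subunit, at 4.62 ± 1.22 and 12 ± 0.522 CPM, and the median log2 fold change was 0.21. The IL-17 receptor gene Il17ra had a log2 fold change of -0.03 (adjusted p = 0.914) and the NF-kB subunit gene Rela one of 0.00 (adjusted p = 0.995) in edgeR's quasi-likelihood test.

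Genes that keratinocytes induce together with defensins were called higher in 4 of 8 tested cases and lower in 0, with a median log2 fold change of 1.71. The list held 18 genes, and those not tested were below the filter. Of the 8 tested, 7 had a positive log2 fold change and 1, Nos2, a negative one (-1.01, not called). In Nos2 each KO library lay below each WT library, and in Krt6b and Ptgs2 the genotypes overlapped. Ccl20, the chemokine ligand of CCR6, had 1.05, 0.468 and 0.944 CPM in WT and 6.75, 10.8 and 25.5 CPM in KO1, KO2 and KO3 (log2 fold change 4.11, SE 0.56, adjusted p = 0.0043, edgeR quasi-likelihood test). It was thus highest in KO3, which was the highest KO library for 44.5% of tested genes but for no antimicrobial gene of the 10. Cxcl1, which attracts neutrophils, rose from 0.347 ± 0.197 to 2.37 ± 0.94 CPM, and like Il1b it passed the filter through the KO libraries alone. The stress keratin gene Krt16 and the envelope gene Sprr1b had log2 fold changes of 1.95 and 1.93.

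Other antimicrobial proteins split in direction, with 3 of 16 tested called higher, 1 called lower and a median log2 fold change of -0.13. Pglyrp1, a peptidoglycan recognition protein, had 1.45, 0.68 and 0.675 CPM in WT and 13.5, 14.8 and 14.5 CPM in KO1, KO2 and KO3 (log2 fold change 3.90, SE 0.31, adjusted p = 0.00023, edgeR quasi-likelihood test). These 3 KO values were closer together than those of any of the 10 genes. Its relative Pglyrp3 had 5.90 ± 1.68 CPM in WT and 19.4 ± 7.60 in KO. Lpo, the lactoperoxidase of glands, had 1.05, 0.85 and 0.63 CPM in WT and 31.0, 5.79 and 3.80 in KO, with KO1 high as for S100a9. The gland water channel gene Aqp5 was also called higher, whereas the gland markers Amy1, Muc5b and Muc19 had no higher mean in KO. Retnla fell by 0.81 on the log2 scale.

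Of 12 other S100 genes tested 0 were called higher and 1 lower, S100a1, a muscle calcium sensor, with a log2 fold change of -0.94. Among partners and targets of the antimicrobial proteins 2 of 8 tested were called higher and 0 lower. These were the epidermal proteases Klk5, with 117 ± 7.68 CPM in WT and 241 ± 51.3 in KO, and Klk7, with 492 ± 80.1 and 1145 ± 341 CPM. The LCN2 receptor gene Slc22a17 had a log2 fold change of -0.28 (adjusted p = 0.277, edgeR quasi-likelihood test). All of these lists were set with results of the data known, and their counts are descriptions beside the 4.38% and 2.09% of tested genes called higher and lower.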

How the data were processed

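RNA of top lip tissue from 3 KO and 3 WT mice (RNA integrity 9 to 9.5) gave 1 paired-end library per mouse. Per the submitters' processing notes the authors used TopHat2 2.0.8, Bowtie2 2.1.0 and HTSeq on GRCm38. The authors deposited whole-number counts of uniquely mapped reads per gene, without normalization. The strand setting is not given in the sources used here. All 6 libraries were used and 0 columns were left out.

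Genes that reached 1 CPM in 3 or more libraries were scaled by TMM and tested with edgeR 4.0.16 (R 4.3.3, estimateDisp, glmQLFit with legacy=FALSE, glmQLFTest). P-values were adjusted by Benjamini-Hochberg over 15009 genes, with a threshold of 0.05. Counts per library bound a count of 0 at 3 counts, for counting error only. The fit was tested on simulated data. Alternatives were 10 settings, including DESeq2 1.42.0 and limma 3.58.1, and leaving out each library. Fits without WT1 and KO1, or without 1 KO library, at 1 CPM in 2 libraries were chosen after seeing the data. Sequences came from GENCODE and RefSeq, aligned with Biopython 1.88; the coding sequence of Defb35 is not reported here. The members and lists were chosen with earlier results of these data known. Named genes were the 10 members, the called genes of each list (at most 6), defining markers, Gtf2ird1 and defensins below the filter; genes named beyond these, such as the neighbours of Defb13, Il17a, Il17f, Il17ra, Rela and Slc22a17, were chosen after their values were seen.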

Additional observations from a re-analysis of the deposited data

How the results depend on the processing

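Defb13 was called in the 9 of 10 alternatives that tested it and without each WT library. It could not be called without a KO library at the main filter. The gene passed the main filter through the KO libraries alone and had at most 1 count in any WT library. These repeated calls therefore describe the same difference and are no independent support for it. At 1 CPM in at least 2 libraries, a setting chosen after seeing the data, Defb13 kept a log2 fold change between 7.47 and 7.87 without each KO library. Among the 10 genes the number called higher was 1, and it was 2 with no filter (Defb13, Defb14), 0 with at least 10 counts in every library, where Defb13 was not tested, 3 with edgeR's exact test (Defb3, Defb13, Defb14) and 4 with DESeq2's Wald test (those and Defb1). Leaving out 1 library gave between 0 and 3, with 3 (Defb1, Defb3, Defb14) without KO3, or 4 at the looser filter, and 3 without both WT1 and KO1. No member was called lower in any setting. Over all genes 657 were higher and 314 lower. The exact test gave 1165 and 1073 and DESeq2 gave 1426 and 1142. With DESeq2's size factors 207 were lower, and 204 with no filter and 204 with at least 10 counts. Leaving out 1 library gave between 208 and 2496 higher and between 18 and 2395 lower, the highest without KO3. At the looser filter this was 385 higher without KO2, 2678 and 2437 without KO3, with 61 lower without KO1 and 23 without KO2. Without WT1 and KO1 it was 328 and 19. The cause was not tested.

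Among the 10 genes, directions reversed only with libraries left out. With 1 library removed, log2 fold changes spanned -1.61 to 0.71 for Defb4, -0.94 to 2.13 for S100a8, -0.62 to 3.53 for S100a9, -0.17 to 1.42 for Lcn2 and -0.10 to 2.42 for Slpi. Defb4 was at 0.71 without WT1 and 0.25 without WT1 and KO1, and Slpi at -0.10 without WT3. S100a8 was at -0.94 and S100a9 at -0.62 without KO1, and Lcn2 at -0.17. At the looser filter without KO1 these were -0.95, -0.63 and -0.17, with Slpi at -0.012. S100a8 was at -0.29 without WT1 and KO1. Under the other scalings of the libraries the 10 members kept their directions.

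Replicate numbers name mice. The labels give no pairing, and the correlations that follow cannot settle whether there was one. Deviations of same-numbered libraries correlated at -0.19, 0.29 and 0.31, and WT2 correlated more with KO1 (0.41) than with KO2. A fit with a replicate block called 580 genes higher and 217 lower, and 3 members higher, Defb3, Defb13 and Defb14. Depth limits the silent defensins, where 3 counts were 0.0986 to 0.154 CPM.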
